A study of Mus musculus with 38 samples.

Results

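The 9 genes Ntn1, Ccbe1, S1pr1, Lhfpl2, Calb2, Rerg, Pdzrn3, Serpinb6b and AA986860 were followed across 14 RNA sequencing libraries of mouse embryonic stem cells, out of 25965 genes in the deposited table. They had been selected on the deposited values of 2 groups, being much higher in cells given a MEK inhibitor and a GSK3 inhibitor together (2i/L) than in cells given the MEK inhibitor alone (MEKi/L). Their differences between those groups are therefore given as a description and were not tested. The test that the choice did not use was GSK3 inhibitor medium without the MEK inhibitor (GSK3i/L) against serum medium (S/L). In it 8 of the 9 genes were called higher in GSK3i/L, where 9.39% of tested genes were, and Pdzrn3 did not pass. Serum and inhibitor changed together in this test.

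The cells were E14 (129/Ola), an established XY line, grown on gelatin without feeder cells. All cells were plated in serum medium and were changed to their assigned medium on the next day. All media contained LIF, the cytokine that supports self-renewal of these cells. S/L was based on DMEM with 15% fetal bovine serum and held neither inhibitor. The other media shared serum-free N2B27: MEKi/L added 1 µM PD03259010 (spelled as in the labels), GSK3i/L added 3 µM CHIR99021, and 2i/L added both. There were 3 libraries of every medium at 8 days and 2 more of GSK3i/L at 24 days. Serum and inhibitor changed together in every comparison with S/L, so their effects cannot be told apart there, and N2B27 with LIF and no inhibitor was not analysed here. The labels call the libraries replicates and do not say that they came from separate cultures, so a p-value here measures the spread between libraries, which may be technical.

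GSK3 is a kinase of the complex that marks beta-catenin, the effector of Wnt signalling, for destruction. When GSK3 is inhibited, beta-catenin accumulates and acts on target genes with TCF and LEF factors. In mouse embryonic stem cells this relieves repression by Tcf7l1, and combined with inhibition of MEK, the kinase above ERK, it sustains naive pluripotency without serum. The 9 genes do not form 1 pathway. Ntn1 and Ccbe1 encode secreted proteins, S1pr1 a receptor and Lhfpl2 a tetraspan membrane protein, while Calb2, Rerg, Pdzrn3 and Serpinb6b encode intracellular proteins.

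Values are reads per 1000000 reads (RPM), converted from the deposited log2 values, and compare libraries for 1 gene, not genes with each other. In 8 libraries depth was 10550000 to 15760000 reads. The 8-day values of GSK3i/L and those of S/L, 6 libraries in all, had nearly the same sorted values, as after matching to a shared distribution, a step that the labels do not state. Depth there was approximated at 8080000 to 18410000 reads. Summed levels of 10 embryonic stem cell markers, including Pou5f1 and Nanog, lay between 5949 and 7633 RPM in every library. Single markers shifted in both directions within this sum. Mean levels in S/L and 2i/L were 79.5 and 1191 RPM for Tfcp2l1 and 74.5 and 396 RPM for Klf4. They were 2394 and 792 RPM for Dppa5a and 225 and 60.7 RPM for Utf1. A score of long minus short transcripts set replicate 1 of GSK3i/L (0.30, against −1.70 and −2.76) and of MEKi/L (0.60, against −1.97 and −1.54) apart from their groups. The score also differed between groups. Its means at 8 days were 0.43 in 2i/L, −0.97 in MEKi/L, −1.38 in GSK3i/L and −2.68 in S/L. At 24 days it was −3.32 in GSK3i/L. It thus changed along with the compared groups, and leaving out replicate 1 does not remove that.

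RefSeq gave a promoter window of 300 bases (250 before and 50 after the start site, GRCm38.p6) for 4 of the 9 genes: AA986860, Pdzrn3, Serpinb6b and Lhfpl2. Serpinb6b and Lhfpl2 lie on the same chromosome and were both highest in 2i/L, and their windows are shown because they had the fewest and the most CpG dinucleotides of the 4. Capitals mark each CpG, and both are read 5′ to 3′ on the plus strand, at chr13:32965011-32965310 for Serpinb6b and chr13:94057546-94057845 for Lhfpl2.
Serpinb6b: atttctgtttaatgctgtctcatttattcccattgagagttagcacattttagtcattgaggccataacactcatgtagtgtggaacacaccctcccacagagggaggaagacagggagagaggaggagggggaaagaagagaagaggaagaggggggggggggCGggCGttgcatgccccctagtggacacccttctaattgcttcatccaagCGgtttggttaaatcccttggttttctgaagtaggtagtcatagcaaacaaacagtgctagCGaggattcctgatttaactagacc
Lhfpl2: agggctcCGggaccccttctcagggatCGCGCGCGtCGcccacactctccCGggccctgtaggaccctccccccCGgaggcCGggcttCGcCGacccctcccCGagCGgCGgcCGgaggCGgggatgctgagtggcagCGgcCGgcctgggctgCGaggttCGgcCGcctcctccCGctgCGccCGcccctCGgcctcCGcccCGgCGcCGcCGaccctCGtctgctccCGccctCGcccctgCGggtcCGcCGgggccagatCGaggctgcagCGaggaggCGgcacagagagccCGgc
The Lhfpl2 window held 40 CpGs at 79.3% GC and the Serpinb6b window 4 at 48.3% GC. Pdzrn3 had 32 and AA986860 had 6, against a median of 7 over 32851 windows (quartiles 3 and 20). Lhfpl2 and Pdzrn3 lay above the upper quartile, and Serpinb6b and AA986860 between the lower quartile and the median. The TCF/LEF core words CTTTGAT and CTTTGAA were searched on both strands. They differ in their last base, so that 1 stretch of 1 strand counts for only 1 of them. Neither was in the 4 windows, where 8.65% of all windows held at least 1. This says only that these letters are not in these windows.

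At 8 days in GSK3i/L against S/L, Calb2, Ccbe1, Rerg, Ntn1, S1pr1, AA986860, Lhfpl2 and Serpinb6b rose. Log2 fold changes ran from 2.35 (Serpinb6b) to 4.58 (Calb2), which is 5.10-fold to 23.9-fold. These 8 of 9 genes were called higher at a limma adjusted p under 0.05 and at least 2-fold, where 9.39% of the 14980 tested genes were called higher. For the same 8 genes no GSK3i/L library fell within the range of S/L, which held upward for 22.8% of tested genes. The median of the 9 genes was 3.24 and that of all tested genes 0.06. All 9 reached the minimum level for testing (0.5 RPM in 3 libraries) in the 2i/L libraries alone, and all 9 also reached it without the 2i/L libraries. Without them, Serpinb6b reached it only through GSK3i/L, with 0.746 and 1.01 RPM at 8 days and 0.836 RPM at 24 days. S1pr1 reached it through GSK3i/L at 8 days together with MEKi/L replicates 2 and 3 (0.935 and 0.853 RPM). For these genes the filter is thus not independent of a high level in GSK3i/L. Neither 2i/L nor MEKi/L libraries enter this difference, although they share in the estimate of spread. With only the 6 libraries of both groups in the fit, 8 genes were called higher. Without replicate 1 of GSK3i/L, the library that stood apart, the count was also 8. Over all single libraries left out it was 6 to 8, and on the log2(RPM + 1) scale it was 6. In RNA from a mixed population, a change in the number of expressing cells and a change per cell cannot be told apart.

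**Figure D1:**
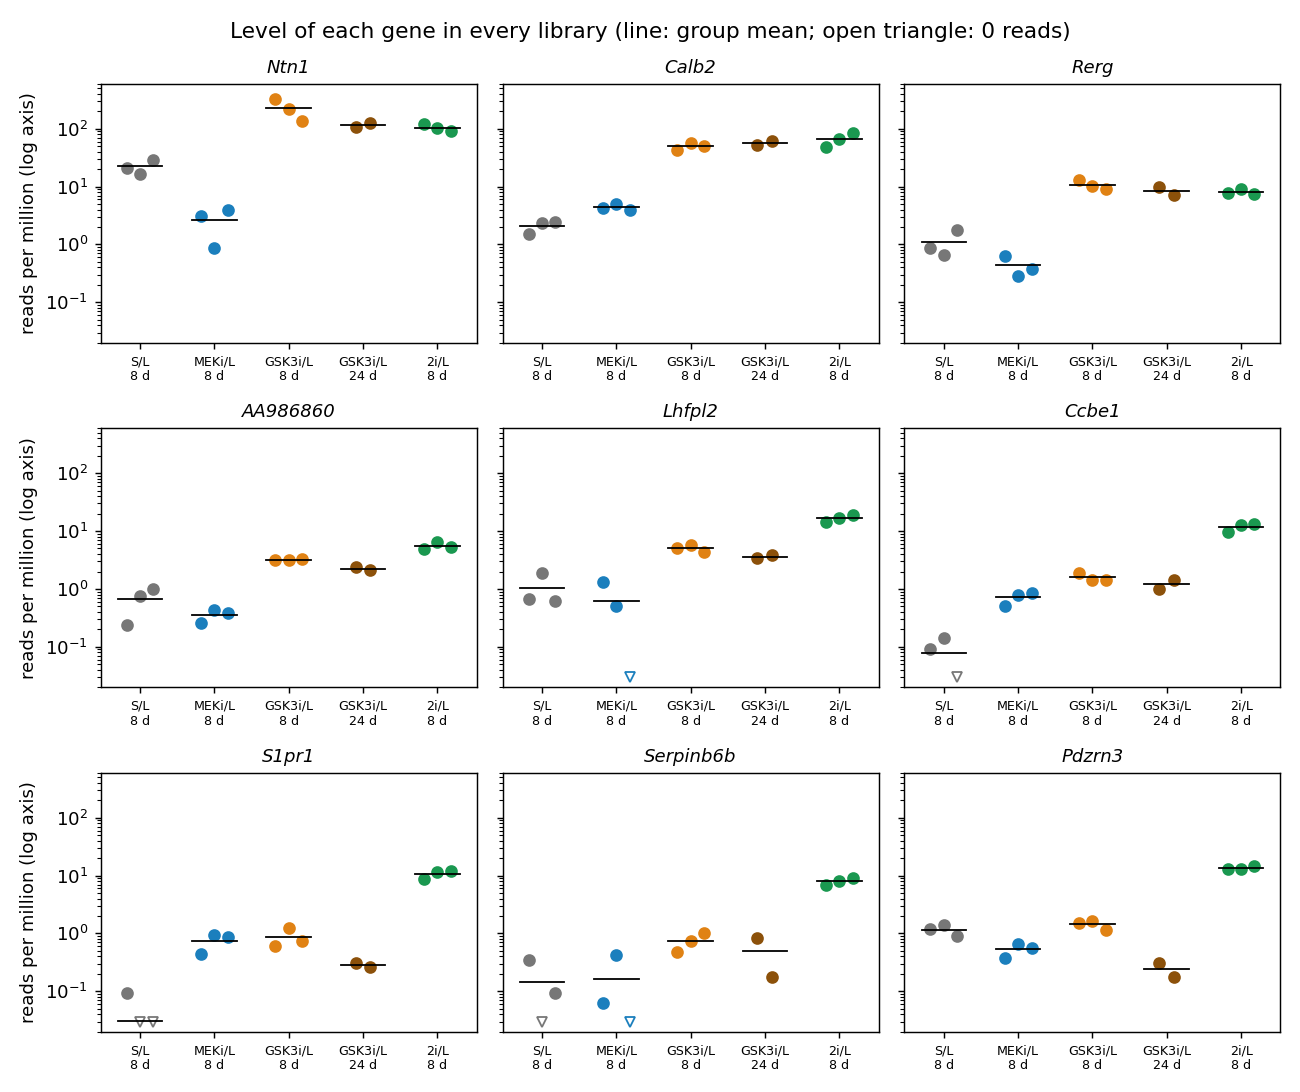
Level of each of the 9 genes in all 14 libraries, in RPM on a log axis, with the group mean as a line and open triangles for libraries with 0 reads. Calb2 and Rerg overlap between GSK3i/L and 2i/L, Ntn1 is highest in GSK3i/L at 8 days, and S1pr1, Serpinb6b and Pdzrn3 stand far higher in 2i/L than in every other group.

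Ntn1 encodes netrin-1, a secreted guidance cue that has been described to act in naive pluripotency through the receptors Neo1 and Unc5b. Its gene is at chr11:68209364-68400823 on the minus strand (GRCm38, as for all gene positions here). In S/L its 3 libraries were at 20.9, 16.7 and 29.2 RPM, and in MEKi/L at 3.11, 0.863 and 3.89 RPM. In GSK3i/L they were at 325, 217 and 134 RPM at 8 days and at 106 and 125 RPM at 24 days, and in 2i/L at 121, 103 and 90.1 RPM. All libraries with the GSK3 inhibitor lay above all libraries without it, MEKi/L was lowest, and GSK3i/L at 8 days was highest, with replicate 1 at the top. For this gene and those below, the choice of genes high in 2i/L and low in MEKi/L favours such an order of the groups. The rise in GSK3i/L at 8 days over S/L was 3.29 ± 0.45 (log2 fold change ± SE, limma adjusted p = 1.4e-04). It was 2.76 with the score of long minus short transcripts in the model. Ntn1 was the gene of the 9 that was lower in 2i/L than in GSK3i/L without overlap, by −1.03 on the log2 scale (13.5% of tested genes were lower without overlap).

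Ccbe1 encodes a secreted protein that works with the protease ADAMTS3 to activate the lymphatic growth factor VEGF-C (chr18:66045302-66302739, minus strand). In S/L its libraries were at 0.0918, 0.142 and 0 RPM, and in MEKi/L at 0.508, 0.792 and 0.853 RPM. In GSK3i/L they were at 1.89, 1.41 and 1.44 RPM at 8 days and at 0.987 and 1.41 RPM at 24 days. In 2i/L they were at 9.68, 12.5 and 13.2 RPM. No group of this gene overlapped the next in order, from S/L through MEKi/L, GSK3i/L at 24 days and GSK3i/L at 8 days up to 2i/L. The log2 fold change in GSK3i/L at 8 days over S/L was 3.93 ± 0.36 (limma adjusted p = 4.6e-06). It rested on 57 reads against 3, a ratio of 13.2 relative to depth (95% exact interval 4.30 to 65.9, for counting error only and at approximate depth). Gm15958 overlaps Ccbe1 on the opposite strand and reached at most 0.132 RPM, and whether reads were counted by strand is not given in the sources used here.

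S1pr1 encodes a G protein-coupled receptor for sphingosine-1-phosphate, best known from blood vessels and lymphocyte traffic (chr3:115710433-115715055, minus strand). Its S/L libraries were at 0.0918, 0 and 0 RPM, and its MEKi/L libraries at 0.444, 0.935 and 0.853 RPM. GSK3i/L libraries were at 0.597, 1.24 and 0.740 RPM at 8 days and at 0.304 and 0.264 RPM at 24 days. In 2i/L it reached 8.61, 11.5 and 11.8 RPM. Each inhibitor alone was thus accompanied by a low level, with MEKi/L and GSK3i/L at 8 days overlapping, and both together by the highest level. GSK3i/L at 8 days exceeded S/L by 3.24 ± 0.40 (log2 fold change ± SE, limma adjusted p = 6.2e-05). With 28 reads against 1, the ratio relative to depth was 19.5 with an exact interval of 3.22 to 796, so its size is poorly fixed. On the log2(RPM + 1) scale the difference was 0.84, below the 2-fold limit.

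Lhfpl2 encodes a tetraspan protein of the lipoma HMGIC fusion partner-like family (chr13:94057796-94195409, plus strand). Its libraries were at 0.659, 1.89 and 0.614 RPM in S/L and at 1.33, 0.504 and 0 RPM in MEKi/L. They were at 5.02, 5.67 and 4.37 RPM in GSK3i/L at 8 days, at 3.42 and 3.79 RPM at 24 days, and at 14.5, 16.9 and 19.0 RPM in 2i/L. Its levels formed steps, with S/L and MEKi/L overlapping at the bottom, GSK3i/L between and 2i/L on top. The log2 fold change in GSK3i/L at 8 days over S/L was 2.45 ± 0.72 (limma adjusted p = 0.020). The call ended when S/L replicate 1 (adjusted p = 0.075), S/L replicate 3 (0.070) or GSK3i/L replicate 2 (0.063) was left out of the limma fit.

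Calb2 encodes calretinin, an EF-hand calcium-binding protein used as a marker of certain neurons (chr8:110142539-110168206, minus strand). It was at 1.52, 2.36 and 2.45 RPM in S/L and at 4.25, 5.04 and 3.89 RPM in MEKi/L. It was at 42.2, 55.9 and 51.0 RPM in GSK3i/L at 8 days, at 52.0 and 61.8 RPM at 24 days, and at 48.3, 65.8 and 85.7 RPM in 2i/L. Groups with the GSK3 inhibitor overlapped each other and stood far above both groups without it. This was the largest difference among the 9 genes, at 4.58 ± 0.24 (log2 fold change ± SE, limma adjusted p = 6.0e-08) for GSK3i/L at 8 days over S/L.

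Rerg encodes a small GTPase of the RAS superfamily that lacks a membrane anchor and has been described as a growth inhibitor regulated by oestrogen (chr6:137054825-137170497, minus strand). Its libraries were at 0.878, 0.647 and 1.77 RPM in S/L and at 0.635, 0.288 and 0.379 RPM in MEKi/L. They reached 13.0, 10.4 and 8.97 RPM in GSK3i/L at 8 days, 9.87 and 7.22 RPM at 24 days, and 7.85, 9.17 and 7.41 RPM in 2i/L. As for Calb2, the 3 groups with the GSK3 inhibitor overlapped and lay above all other libraries. GSK3i/L at 8 days exceeded S/L by 3.41 ± 0.37 (log2 fold change ± SE, limma adjusted p = 2.4e-05).

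Pdzrn3 encodes an E3 ubiquitin ligase with a RING finger and PDZ domains (chr6:101149609-101377897, minus strand). It was at 1.19, 1.40 and 0.892 RPM in S/L, at 0.381, 0.648 and 0.569 RPM in MEKi/L, and at 1.49, 1.66 and 1.15 RPM in GSK3i/L at 8 days. It was at 0.304 and 0.176 RPM in GSK3i/L at 24 days and at 12.9, 12.8 and 14.6 RPM in 2i/L. Serum and GSK3i/L libraries at 8 days overlapped. GSK3i/L at 8 days lay above MEKi/L without overlap, by 1.45 on the log2 scale (9.28% of tested genes did), and MEKi/L was among the groups that chose the genes. As N2B27 with LIF and no inhibitor was not analysed, a gain with the GSK3 inhibitor alone cannot be told for this gene. The log2 fold change of GSK3i/L at 8 days over S/L was 0.31 ± 0.34 (95% interval −0.42 to 1.04, limma adjusted p = 0.50). From 51 reads against 38 the ratio relative to depth was 0.933 (exact interval 0.601 to 1.46), so its direction also depended on the scale.

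Serpinb6b encodes an intracellular serine protease inhibitor of clade B, in a cluster of related genes (chr13:32965209-32979067, plus strand). Its libraries were at 0.344, 0 and 0.0935 RPM in S/L and at 0.0635, 0.432 and 0 RPM in MEKi/L. They were at 0.470, 0.746 and 1.01 RPM in GSK3i/L at 8 days, at 0.836 and 0.176 RPM at 24 days, and at 6.86, 8.14 and 9.06 RPM in 2i/L. Only the 2i/L group stood clear of its neighbour in the order of levels. GSK3i/L at 8 days exceeded S/L by 2.35 ± 0.77 (log2 fold change ± SE, limma adjusted p = 0.033), from 22 reads against 5 and a ratio of 3.06 (exact interval 1.13 to 10.3). The call ended without S/L replicate 2 (adjusted p = 0.11), S/L replicate 3 (0.100), GSK3i/L replicate 2 (0.083) or GSK3i/L replicate 3 (0.062), and on the log2(RPM + 1) scale the difference was 0.61. Reads can be split between Serpinb6b and its close relatives, so its level is uncertain.

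AA986860 is listed under the synonym Sarg in RefSeq (chr1:130731976-130744621, plus strand). It was at 0.241, 0.745 and 0.997 RPM in S/L and at 0.254, 0.432 and 0.379 RPM in MEKi/L. It was at 3.17, 3.15 and 3.29 RPM in GSK3i/L at 8 days, at 2.35 and 2.11 RPM at 24 days, and at 4.95, 6.56 and 5.29 RPM in 2i/L. Levels with the GSK3 inhibitor were all above those without it and were highest in 2i/L. The log2 fold change in GSK3i/L at 8 days over S/L was 2.51 ± 0.44 (limma adjusted p = 9.5e-04).

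**Figure D2:**
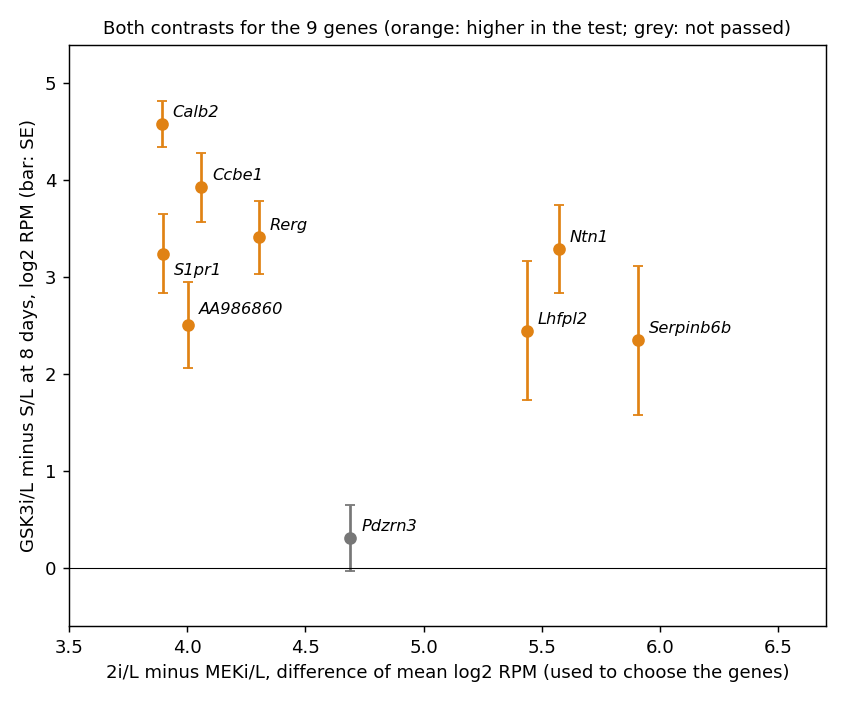
Difference of mean log2 RPM between 2i/L and MEKi/L (x axis, the values that chose the genes) against the log2 difference between GSK3i/L and S/L at 8 days (y axis, bars are SE) for the 9 genes. All lie between 3.89 and 5.91 on the x axis, and Pdzrn3 (grey, 0.31) is the gene that did not pass on the y axis.

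The contrast that chose the genes is described here without a test. The 2i/L libraries exceeded the MEKi/L libraries by 3.89 (Calb2) to 5.91 (Serpinb6b) on the log2 scale, between rank 4 and rank 24 of 14980 tested genes. For all 9 genes the groups did not overlap, as for 21.6% of tested genes in that direction, a count that the choice itself fixed. The choice set no numeric limit, and the top 24 also held 15 genes outside the list, such as Nkx1-2, Sp5, Cdx1 and the relative Pdzrn4. Calb2, the last of the 9, was followed by Tnni1 (3.86) and Axin2 (3.81).

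Comparisons that use the MEKi/L or 2i/L libraries draw on values that chose the genes, low in MEKi/L and high in 2i/L. The choice favours the directions below, so the shares of all tested genes are printed for reference and nothing is read from them. GSK3i/L exceeded MEKi/L without overlap in 8 of the 9 genes, where 9.28% of tested genes did. The differences ran from 0.21 (S1pr1, overlapping) to 6.60 (Ntn1). 2i/L exceeded S/L without overlap in all 9 (45.4% of tested genes), from 2.26 (Ntn1) to 6.93 (S1pr1).

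The level that GSK3i/L alone gave, relative to 2i/L, separated the genes. The 8-day GSK3i/L values were as after matching to a shared distribution and the 2i/L values were not. The percents therefore cross both kinds of values and are approximate. The mean at 8 days was 216% of the 2i/L mean for Ntn1, 133% for Rerg and 74.6% for Calb2. It was 57.2% for AA986860 and 29.9% for Lhfpl2. It was 13.4% for Ccbe1, 10.7% for Pdzrn3, 9.27% for Serpinb6b and 8.06% for S1pr1. In log2 terms, 2i/L exceeded GSK3i/L without overlap for S1pr1 (3.69), Serpinb6b (3.49), Pdzrn3 (3.24), Ccbe1 (2.90), Lhfpl2 (1.74) and AA986860 (0.80), which is 6 of 9 genes (32.2% of tested genes). The choice of genes with high 2i/L values favours this direction. Rerg (−0.39) and Calb2 (0.39) overlapped between these media.

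**Figure D3:**
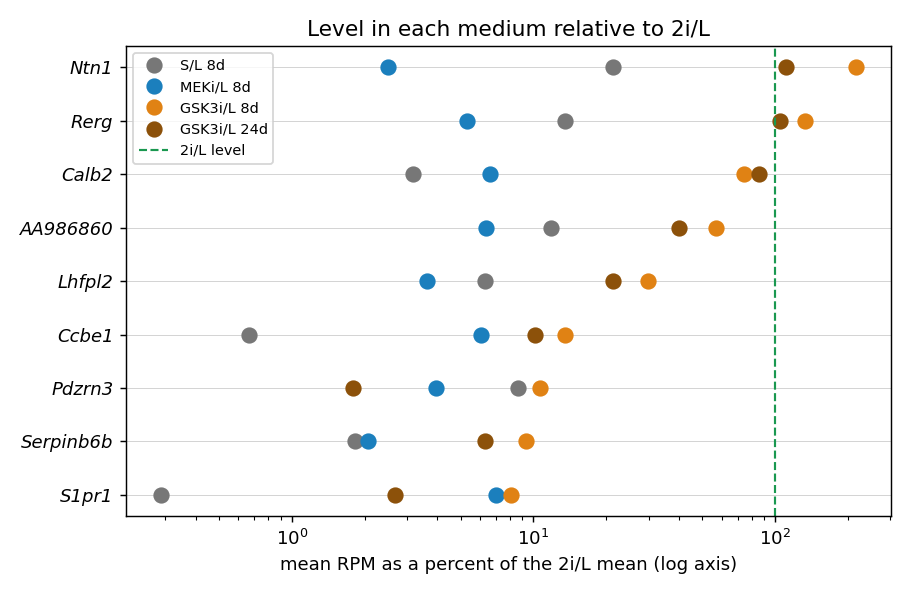
Mean RPM of each gene in the other 4 groups as a percent of its 2i/L mean, on a log axis, with the 2i/L level as a dashed line at 100%. GSK3i/L at 8 days ranges from 8.06% for S1pr1 to 216% for Ntn1, and MEKi/L stays under 10% for every one of the 9 genes.

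Without the GSK3 inhibitor the genes did not share an order. MEKi/L was above S/L without overlap for S1pr1 (3.03 on the log2 scale), Ccbe1 (2.76) and Calb2 (1.08), 3 of 9 genes where 33.7% of tested genes were. It was below S/L without overlap for Ntn1 (−3.31), Rerg (−1.29) and Pdzrn3 (−1.14), 3 of 9 where 21.5% were. Lhfpl2, Serpinb6b and AA986860 overlapped.

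GSK3i/L cultures at 24 days were compared with those at 8 days to see which levels lasted. Pdzrn3 fell by 2.62 on the log2 scale (SE 0.38, limma adjusted p = 0.0011) and S1pr1 by 1.53 (SE 0.45, limma adjusted p = 0.036). These were 2 of 9 genes, where 7.1% of tested genes were called lower. The Pdzrn3 call ended with only the libraries of both groups in the fit (limma adjusted p = 0.078) and on the log2(RPM + 1) scale, where the difference was −0.97 and under 2-fold. Pdzrn3 went from 51 reads in 3 libraries to 6 in 2, and S1pr1 from 28 to 7. Without GSK3i/L replicate 1 or 2 at 8 days, or either library at 24 days, the S1pr1 call ended (adjusted p 0.064 to 0.15), and the count was 1. Over all genes, the 1064 calls lower became 387 without replicate 1 and 1955 without replicate 3 at 8 days, and 338 or 343 without replicate 2 or 3 at 24 days. The other 7 genes did not pass, from −0.89 (Serpinb6b, 95% interval −2.73 to 0.96) to 0.20 (Calb2, −0.37 to 0.77). Ntn1 was at −0.87 (−1.96 to 0.21) with its libraries at 24 days all below those at 8 days. In 6 of 9 genes the 24-day libraries were below without overlap, where 31% of tested genes were. The median was −0.52 for the 9 genes and −0.19 for all tested genes. Higher genes were 28.8% of all calls, 44.8% after quantile normalization and 50.5% with trimmed mean scaling, so the balance of directions depended on the scaling.

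Against S/L at 8 days, the 24-day libraries of GSK3i/L were higher in 6 of 9 genes, where 7.1% of tested genes were called higher. S/L was not sampled at 24 days, so time changed together with serum and inhibitor in this test. Calb2 (4.78 ± 0.27), Ccbe1 (3.52 ± 0.40), Rerg (3.08 ± 0.42), Ntn1 (2.42 ± 0.50), AA986860 (1.99 ± 0.49) and S1pr1 (1.71 ± 0.45, all log2 fold change ± SE) passed, with limma adjusted p from 1.5e-07 (Calb2) to 0.013 (S1pr1). With either library at 24 days left out, the calls of AA986860 and S1pr1 ended and 4 genes were called, and without replicate 3 the calls higher over all genes went from 1063 to 586. The median of the 9 genes was 1.99 and that of all tested genes −0.12. Lhfpl2 (1.98 ± 0.80, limma adjusted p = 0.086) and Serpinb6b (1.46 ± 0.86, limma adjusted p = 0.24) did not pass. Pdzrn3 was below its 8-day serum level, by 2.30 (SE 0.38, limma adjusted p = 6.0e-04), where 10.3% of tested genes were called lower. Both tests use the same 24-day libraries, and this test shares S/L with the test at 8 days. Higher genes were 40.9% of all calls and 51.3% after quantile normalization.

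Markers of other cell types moved in the same libraries. For reference, in GSK3i/L against S/L at 8 days 9.39% of the 14980 tested genes were called higher and 1509 genes were called lower. Of 10 tested markers of fibroblasts and mesenchyme 8 were called higher in GSK3i/L than in S/L at 8 days, and the summed level of the 12 listed was 108 to 255 RPM there against 15.3 to 17.8 RPM in S/L. It was 7.49 to 11.0 RPM in MEKi/L, 16.4 to 16.7 RPM in 2i/L and 10.0 to 11.6 RPM in GSK3i/L at 24 days. At 24 days 7 of the 12 (Col1a2, Col3a1, Dcn, Lum, Postn, Twist2 and Prrx1) had 0 reads in both libraries, while Thy1 was at 5.30 RPM and Pdgfra at 3.37 RPM, against 6.01 and 2.30 RPM at 8 days. Of the 9 genes, S1pr1 and Pdzrn3 were called lower at 24 than at 8 days and the other 7 did not pass. The part of mesenchymal cells in the levels of the 9 genes was not tested. For the endothelial markers, relevant to S1pr1 and Ccbe1, summed levels of the 12 listed were 84.1 to 104 RPM in S/L, 102 to 106 RPM in GSK3i/L at 8 days, 95.6 to 99.2 RPM at 24 days, 135 to 194 RPM in MEKi/L and 186 to 264 RPM in 2i/L. Pecam1 was at 32.0 RPM in S/L and 174 RPM in 2i/L, and Tek at 8.72 and 15.6 RPM, while Cdh5 and Emcn had 0 reads in both media and in both GSK3i/L groups. Others went the other way, such as Egfl7 (42.0 RPM in S/L and 25.3 RPM in 2i/L) and Robo4 (3.90 and 0 RPM). The median log2 difference of the 9 tested markers between 2i/L and S/L was −1.14, against 0.28 for all tested genes. Of 9 tested endothelial markers 2 fell in GSK3i/L at 8 days against S/L and 7 did not pass. The part of endothelial cells in the levels of S1pr1 and Ccbe1 was not tested. Of 8 tested neural markers, relevant to Calb2, 4 fell and 4 did not pass in GSK3i/L at 8 days, with Dcx and Neurog2 at 0 reads. Mesoderm markers went both ways (4 of 7 rose and 2 fell), as did trophoblast markers (2 of 7 each way), while 3 of 11 primitive endoderm markers rose and 8 did not pass. Summed levels of the 12 listed mesoderm markers were 76.6 to 80.2 RPM in S/L and 24.4 to 44.0 RPM in 8-day GSK3i/L. Tcf15 alone had means of 72.9 and 10.8 RPM there. The sums were 74.2 to 121 and 51.7 to 65.5 RPM for trophoblast markers. For primitive endoderm markers they were 54.2 to 78.2 and 87.5 to 256 RPM. Of the 10 stem cell markers 3 rose and 1 fell.

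Partner genes of each pathway were read from the same test at 8 days, with the 9 genes themselves left out of the counts. In this test 9.39% of the 14980 tested genes were called higher and 1509 genes were called lower. Of 7 tested netrins and netrin receptors 2 rose, with a list median of −0.05. These were Neo1, which encodes the netrin receptor neogenin (1.34 ± 0.27, limma adjusted p = 0.0022), and Unc5c, which encodes a repulsive netrin receptor (4.13 ± 0.62, limma adjusted p = 2.8e-04). Unc5b did not pass (−0.05 ± 0.35, limma adjusted p = 0.93), with means of 27.8 RPM in S/L and 29.3 RPM in GSK3i/L. Neo1 was at 50.8 ± 13.2 RPM in GSK3i/L and 95.9 ± 7.55 RPM in 2i/L (mean ± SD, n = 3), and Unc5c, whose S/L mean was 0.0618 RPM, had 0 reads in both 24-day libraries. Of 10 tested genes of sphingosine-1-phosphate signalling the receptors S1pr3 (1.96 ± 0.34) and S1pr4 (2.47 ± 0.65) rose and 8 did not pass, with a median of 0.29. The sphingosine kinase gene Sphk2 was at 0.18 ± 0.21. Of 7 tested genes of VEGF-C processing and reception the co-receptor Nrp2 (2.25 ± 0.36) and Adamts3 (1.79 ± 0.59), the protease that Ccbe1 assists, rose, and Adamts14 fell (−2.80 ± 0.24). The list median was 0.60, and the ligand gene Vegfc was at −0.14 ± 0.25.

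Among the relatives of Pdzrn3, Pdzrn4 (4.36 ± 0.67) and Lnx1 (1.24 ± 0.31) rose and Lnx2 did not pass (median 1.24), so that Pdzrn3 and its closest listed relative differed in this comparison, a difference that was not tested. Pdzrn4 had a mean of 0.0306 RPM in S/L, from few reads. Of 9 tested relatives of Rerg, Rasl11a fell (−2.22 ± 0.48) and 8 did not pass (median −0.45). Of 3 tested relatives of Lhfpl2, Lhfp rose (2.40 ± 0.60) and 2 did not pass (median 0.49). At 24 days Lhfp was at 0.0760 RPM, while Lhfpl2 was at 3.60 RPM. Of 6 tested clade B serpins near Serpinb6b, Serpinb1a rose (2.46 ± 0.34) and 5 did not pass (median 0.20), among them Serpinb6a (−1.07 ± 0.41, limma adjusted p = 0.060). Of the calcium buffers besides Calb2 only S100g reached the tested level, at 1.03 ± 0.77 (limma adjusted p = 0.31). The median of all 14980 tested genes was 0.06, with 9.39% called higher and 1509 genes called lower.

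Of 23 tested Wnt/beta-catenin target genes 7 rose, 2 fell and 14 did not pass in the same test, with a median of 0.66. Among all 14980 tested genes 9.39% were called higher and 1509 genes were called lower. Axin2, a feedback inhibitor of the pathway (3.20 ± 0.24), the transcription factor genes Sp5 (2.98 ± 0.54), Cdx1 (3.06 ± 0.60), T (4.22 ± 0.54) and Tbx3 (1.50 ± 0.28), the feedback gene Nkd1 (1.88 ± 0.54) and Tnfrsf19 (1.44 ± 0.23) were higher, while the ligand genes Wnt3 (−2.47 ± 0.44) and Wnt8a (−1.73 ± 0.61) were lower. The 9 genes and these targets were read from the same libraries, and nothing about control of one by the other was measured.

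**Figure D4:**
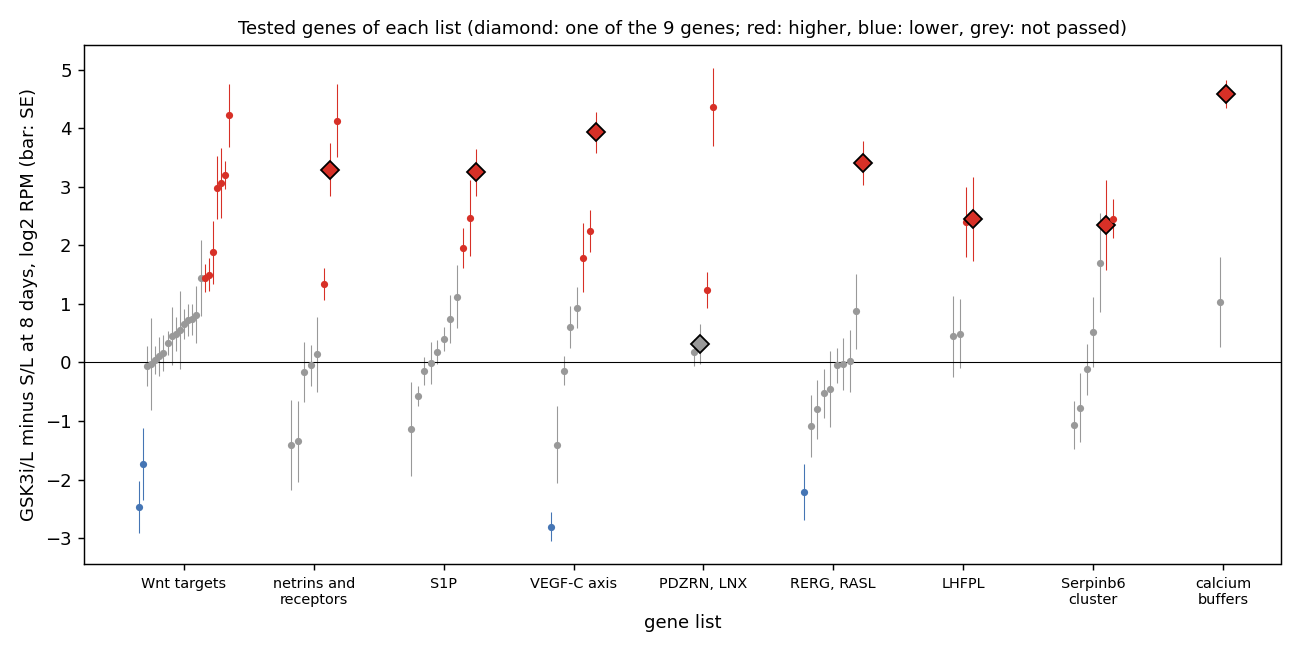
Log2 difference between GSK3i/L and S/L at 8 days for every tested gene of each list, with SE bars, diamonds for the 9 genes, red for higher, blue for lower and grey for genes that did not pass. Points of the lists lie on both sides of 0 or above it, and 7 of the 8 lists with 1 of the 9 genes show it as a red diamond, with Pdzrn3 as the grey one.

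The gene whose profile over the 14 libraries was nearest to the median profile of the 9 genes was Axin2, among 10512 genes with a mean of at least 5 RPM. Likeness was the root mean square difference of centred log2 values, which was 0.53 for Axin2 and 0.53 for Ctsc, a lysosomal protease gene. The other 8 of the nearest 10 were 5730469M10Rik, Fetub, Slc16a9, St8sia6, D6Mm5e, Bdh1, Rasgrp1 and Pou2f3 (0.77 to 0.87). The 9 genes themselves lay between 0.69 (AA986860) and 1.65 (Ntn1) from their own median. The 10 neighbours were picked for their likeness, so their smaller distances are no result. The median profile also includes the 2i/L and MEKi/L libraries that chose the 9 genes, which favours genes with a large difference there. On the log2 scale that difference was 3.81 for Axin2 and 3.60 for Ctsc. Mean levels of Axin2 were 49.1 RPM with GSK3i/L at 8 days, 23.9 RPM at 24 days and 67.0 RPM with 2i/L, against 5.32 RPM in serum and 4.87 RPM with MEKi/L. Bdh1, a ketone body enzyme gene, went from 13.1 RPM in S/L to 77.1 RPM in GSK3i/L at 8 days and 121 RPM in 2i/L. All points share the same libraries, and the ranking is a description.

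**Figure D5:**
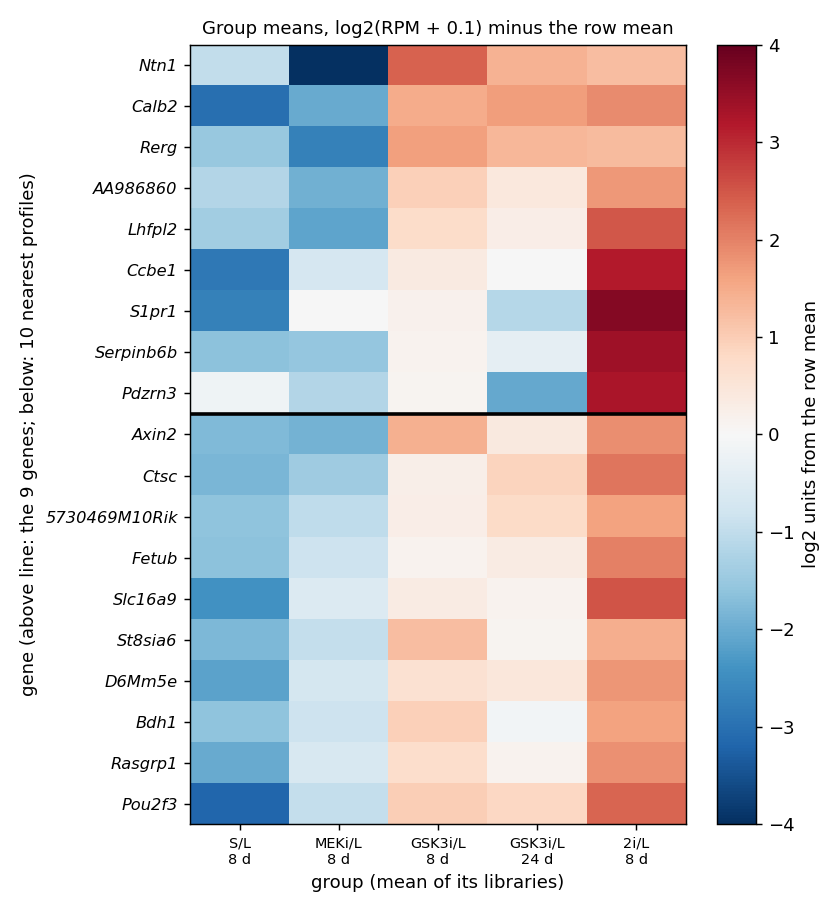
Group means of log2(RPM + 0.1) minus the mean of each row, for the 9 genes (above the line) and the 10 genes with the nearest profiles (below), with a colour scale that ends at 4 log2 units in each direction. Calb2 and Rerg are about as high in each of the 3 columns with the GSK3 inhibitor, Ntn1 is highest in GSK3i/L at 8 days, S1pr1, Serpinb6b, Pdzrn3 and Ccbe1 are highest in 2i/L, and Axin2 and Ctsc resemble the middle of the list.

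Of the 18 nearest neighbours of the 9 genes, 12 were tested in GSK3i/L against S/L at 8 days. Among all 14980 tested genes 9.39% were called higher there and 1509 genes were called lower. A930005H10Rik, 172767 bases from S1pr1 (1.42 ± 0.49), and AC124409.1, 30777 bases from Calb2 (2.66 ± 0.72), rose, and Pik3r5, 31298 bases from Ntn1 (−3.10 ± 0.63), fell. Stx8, at 2216 bases from Ntn1, was at −0.19 ± 0.22, and Scamp1, at 5901 bases from Lhfpl2, was at −0.69 ± 0.20. Pfkfb2, at 2723 bases from AA986860, was at 0.89 ± 0.20 and Lman1, at 22722 bases from Ccbe1, at 0.73 ± 0.16, both under 2-fold. AC124409.1 had group means of at most 1.04 RPM, so its rise rested on few reads. Of the neighbours with the same direction, Arsb beside Lhfpl2 (1.38 ± 0.72, limma adjusted p = 0.16) did not pass. In 2i/L against MEKi/L, the contrast that chose the genes, tested neighbours ran from −0.42 (Pik3r5) to 2.45 (Arsb) on the log2 scale, without a test. Gm12305 and Gm15907, which overlap Ntn1 and Lhfpl2, had 0 reads in every library.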

How the data were processed

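Poly(A) RNA libraries were made with a strand-specific kit and read as 50-base single ends, per the labels' protocols. Trim Galore 0.6.5, Bismark 0.22.3 (for bisulfite reads), HISAT2 and GRCm38 are named per the submitters' processing notes, and how reads were counted is not given there. Values were deposited by the authors as log2 reads per 1000000 reads (RPM), 1 per gene and library. In 8 libraries at least 99.96% of values were whole reads within 0.02 of a read, with 0 reads at 0.9 of a read. The 6 libraries of S/L and of GSK3i/L (8 days) had nearly equal sorted values (within 0.079 log2 above 2 RPM), as after matching to 1 distribution. No label states that step, and it can hide a shift of all genes, and tests at 24 days cross both kinds of values. Comparisons of S/L or 8-day GSK3i/L with MEKi/L or 2i/L cross them too. Of the identifiers 25035 matched a table of gene names, including all 9 genes.

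Group was the only term in 1 limma 3.58.1 fit (R 4.3.3, trend and robust variances) of the 14980 genes that reached 0.5 RPM in 3 or more libraries. Calls needed a difference of 2-fold or more and an adjusted p (Benjamini-Hochberg) under 0.05. The test had been planned for counts or log values, and the log form was used. The procedure was tested on simulated data. Low reads in matched libraries were recovered from the order of distinct values (up to 300 reads, which equalled the reads in 100% of cases in the plain libraries), an alternative chosen after seeing the data. Intervals cover counting error only. In GSK3i/L and S/L same-numbered libraries did not deviate together, so numbers were not taken as pairs. The 9 genes, gene lists and markers were chosen with earlier results of these data known. Named besides the 9 were list members that passed in GSK3i/L against S/L and at most 4 other abundant ones per list, nearest neighbours, and the 10 most alike profiles. The alternatives were other scalings, filters, pseudocounts, subsets of libraries, a replicate block and a covariate. The 24 bisulfite samples were not analysed here.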

Additional observations from a re-analysis of the deposited data

How the results depend on the processing

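Counts of called genes among the 9 stayed within 1.5 times in 82 cases and moved further in 10. In GSK3i/L against S/L at 8 days 8 genes were called higher under every alternative that kept all libraries, except log2(RPM + 1) with 6 (S1pr1 and Serpinb6b fell under 2-fold), and 6 to 8 when 1 library was left out. For GSK3i/L at 24 against 8 days, 2 genes were called lower, but 1 after quantile normalization, 1 with trimmed mean scaling, 1 without a filter on low values, 0 on log2(RPM + 1), 0 with only the libraries of both groups, and 1 to 2 with 1 library left out. At 24 days against S/L, 1 gene was called lower, but 0 on log2(RPM + 1), and 4 to 6 were called higher with 1 library left out. Over all genes, the 1407 calls higher in GSK3i/L against S/L were 863 on log2(RPM + 1). Calls at 24 against 8 days were 430 higher and 1064 lower, but 489 and 602 after quantile normalization, 651 and 639 with trimmed mean scaling, 412 and 673 on log2(RPM + 1), 271 and 922 without trend and robust variances, 7 and 142 with only those libraries and 68 and 323 with the score as a covariate. With the score of long minus short transcripts in the model, Rerg (0.18) and Lhfpl2 (0.41) changed sign at 24 against 8 days, as did Serpinb6b, at −2.01 without GSK3i/L 24d replicate 2 and 0.24 without replicate 3. By recovered reads Pdzrn3 was at −0.10 in GSK3i/L against S/L. None of these 4 values had passed. The cause was not tested.

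With the replicate number as a block, 8 genes were higher in GSK3i/L against S/L, 2 lower at 24 against 8 days, and 6 higher and 1 lower at 24 days against S/L, as without it. Over all genes the block left 171 higher and 630 lower calls at 24 against 8 days. Same-numbered libraries of GSK3i/L and S/L correlated at −0.29, 0.23 and −0.25 in their deviations, so the numbers do not pair them. Genes under about 1 RPM rest on fewer than 20 reads a library, which limits S1pr1, Serpinb6b, Ccbe1 and Pdzrn3. The mean S/L levels of Rerg, AA986860 and Lhfpl2 were also near or under 1 RPM. The ratio of recovered reads relative to depth, GSK3i/L at 8 days to S/L, was 8.90 for Rerg (exact interval 6.34 to 12.9). It was 3.54 for AA986860 (2.25 to 5.80) and 3.95 for Lhfpl2 (2.75 to 5.83). The folds from the limma fit were larger, at 10.6 (Rerg), 5.68 (AA986860) and 5.46 (Lhfpl2).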

Other observations

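Relatives of the 9 genes, named after their values were seen, were high in various groups. Pdzrn4 was at 2.14 RPM in GSK3i/L at 8 days, 0.984 RPM at 24 days and 4.28 RPM in 2i/L, against 0.0306 RPM in S/L and 0.309 RPM in MEKi/L, an order also seen for Ccbe1. S1pr3 was at 4.63 RPM in GSK3i/L at 8 days and 5.63 RPM in 2i/L, but at 0.966 RPM in GSK3i/L at 24 days. Serpinb1a was at 25.3 RPM in MEKi/L and 35.9 RPM in 2i/L, against 2.11 RPM in S/L, while Serpinb6b was at 0.165 RPM in MEKi/L. S100g, an EF-hand calcium-binding gene, had a mean of 18.4 RPM in GSK3i/L at 24 days and of at most 0.292 RPM in every other group.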
